A study of Mus musculus with 20 samples.

Results

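The genes described here are 48 mouse genes of ribosome biogenesis: subunits and factors of RNA polymerase I (Pol I), nucleolar scaffold proteins, small nucleolar ribonucleoprotein (snoRNP) proteins and assembly factors of the 40S and 60S ribosomal subunits. They were chosen by function, as a list of symbols, with earlier results of these data known. The effect of that choice on the member counts below was not tested. Each was matched to its Ensembl gene identifier among the 56239 genes in the count table. All 48 passed the filter of 10 counts in 2 libraries and were among the 16601 genes tested. Their fall is timed below against that of Myc, a transcription factor gene.

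B3 cells are a mouse pre-B cell line. In every library, 0 h included, the cells carried a retrovirally transduced Ikaros-ERt2 construct, in which the transcription factor IKZF1 (Ikaros) is fused to a receptor domain that holds it outside the nucleus until 4-hydroxytamoxifen (4-OHT) is added. Chromatin-associated RNA, which is enriched for nascent transcripts, was sequenced from untreated cells (0 h) and after 30 min, 1, 2, 6, 12, 15, 18, 21 and 24 h of 500 nM 4-OHT, with 2 libraries per time point and 20 in all. The 0 h cells received no 4-OHT, and no library of 4-OHT without the construct was analysed here, so effects of the drug and of the induced protein cannot be told apart.

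Ribosomes are built in the nucleolus. Pol I, brought to the ribosomal DNA by UBTF and RRN3, transcribes the precursor rRNA, which box C/D and box H/ACA snoRNPs modify and which large assemblies of processing factors fold, cut and combine with ribosomal proteins into the small and large subunits. Genes of this pathway are highly expressed in proliferating cells, and many of them are classical targets of MYC, which binds the E-box CACGTG together with MAX.

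Library totals ranged from 33296158 to 46868954 counts. The members took 0.474 and 0.475% of all counts in the 0 h libraries, 0.505 and 0.504% at 30 min, and 0.106 and 0.107% at 24 h, and single members had 47 to 18080 counts in a library. In bulk RNA, fewer cells that express a gene and less RNA per cell cannot be told apart. Chi-square per degree of freedom between the libraries of a time point was 1.36 to 3.3 at 7 of the 10 time points, 6.73 at 21 h, 14.7 at 12 h and 22.8 at 18 h. Of 10 pre-B markers, 8 were tested. Their CPM summed to 11600 to 11700 at 0 h and 10800 to 11000 at 24 h. CPM here are counts scaled to a common library size by the library total. By 24 h 3 of the 8 markers were lower and 5 higher (36.1 and 35.4% of all genes). Single markers had moved far in both directions, with a median log2 fold change of 1.23. The range was from -7.42 for Igll1 to 4.35 for Blnk. Rag1 and Rag2, recombinase genes of this stage, had 0 counts. Both overlap the annotated gene B230118H07Rik, and whether reads shared with it were left out of the counts was not tested. Scaled by the library total in the same way, T cell markers summed to at most 0.447 at 0 h and 24 h and myeloid markers to at most 1.7.

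Below, levels are given as CPM after TMM scaling, as replicate 1 and then replicate 2. Fold changes are log2 values with their standard errors (SE). Adjusted p-values, by the Benjamini-Hochberg method over the 16601 genes, come from the quasi-likelihood test of edgeR. A gene is called lower or higher at an adjusted p under 0.01 with no minimum size, and down or up if the fold also exceeded 2. All comparisons with 0 h share the same pair of 0 h libraries. Those were described with one number and an added suffix, unlike the other libraries, so they may be repeat libraries of one culture. Their titles and column names instead number them as replicate 1 and replicate 2, and the labels do not settle it. Their chi-square per degree of freedom was 1.68, within the 1.36 to 3.3 of most time points. That value cannot decide it, since no label says that the replicates of any time point are separate cultures.

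Myc (ENSMUSG00000022346, chr15:61985391-61990374, + strand, GRCm38) fell in separate phases. Myc was at 63.6 and 62.1 CPM in untreated cells, 30.6 and 29.6 after 30 min, 31.3 and 29.2 after 1 h, 27.5 and 26.7 after 2 h, 34 and 30.7 after 6 h, 22.3 and 28.2 after 12 h, 18 and 19 after 15 h, 12.4 and 9.63 after 18 h, 6.14 and 6.59 after 21 h and 5.55 and 4.4 after 24 h. Both libraries of every induced time point were below both 0 h libraries. At 30 min the log2 fold change was -1.06 (SE 0.0896, adjusted p = 3.11e-08). Myc then showed no further change that passed the test in the steps from 30 min to 1 h (log2 fold change 0.0092, adjusted p = 0.954), 1 to 2 h (-0.16, adjusted p = 0.213) and 2 to 6 h (0.25, adjusted p = 0.0315). It fell again in each of the 4 steps from 6 to 21 h, by 0.35, 0.45, 0.74 and 0.79 on the log2 scale, and stood at -3.67 (SE 0.116, adjusted p = 1.54e-17) at 24 h.

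None of the 48 members was lower at 30 min by edgeR or DESeq2 fitted to all 20 libraries (2 at an unadjusted p under 0.05 in edgeR). Myc had by then already fallen to 30.6 and 29.6 CPM. The edgeR fit of only the libraries compared, given below, did call a member lower at 30 min. At that time 787 of the 16601 genes were lower (4.74%) and 614 higher (3.7%). Polr1b (log2 fold change 0.19), Ncl (0.21), Bysl (0.32) and Noc2l (0.19) were higher, and the median member stood at 0.08. At 1 h, 18 members were lower against 17.1% of all genes, 2 were higher against 19.2% (Wdr12 and Noc3l), and the median was -0.16. At 2 h 43 of 48 were lower against 23.8% of all genes, with a median log2 fold change of -0.62 against 0.03 over all genes.

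The fall then continued to the end of the time course. At 6 h, 46 members were lower against 27.3% of all genes. All 48 were at 12, 15 and 18 h, against 29.5, 32.6 and 36%, and 47 at 21 and 24 h, against 36 and 36.1%. The median log2 fold change was -0.68 at 6 h, -0.96 at 12 h, -1.36 at 15 h, -1.78 at 18 h and -2.20 at both 21 and 24 h, so the median member ended at 21.8% of its 0 h level. The number of members down by more than 2-fold rose from 0 at 30 min and 1 h (0.41 and 4.84% of all genes), where the lowest member was at -0.21 and -0.82, to 3 at 2 h (6.91%), 9 at 6 h (9.13%), 22 at 12 h (9.92%), 36 at 15 h (13.1%), 40 at 18 h (17.6%) and 41 at 21 and 24 h (19.4 and 20.1%). No member was up by more than 2-fold at any time, and the highest value was 0.69, that of Wdr12 at 24 h. Of all genes, 0.0542% were up at 30 min, 2.33% at 1 h, 6.25, 10.9, 13.2, 15.3 and 19.1% at 2, 6, 12, 15 and 18 h, 20.1% at 21 h and 20% at 24 h. Wdr12 was the lone member called higher at 2, 21 and 24 h, against 23.9, 35.7 and 35.4% of all genes. No member was called higher at 6, 12, 15 and 18 h, when 30, 31.2, 33.1 and 35.3% of all genes were, and the highest member was then at -0.09, -0.22, -0.39 and -0.27.

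**Figure D1:**
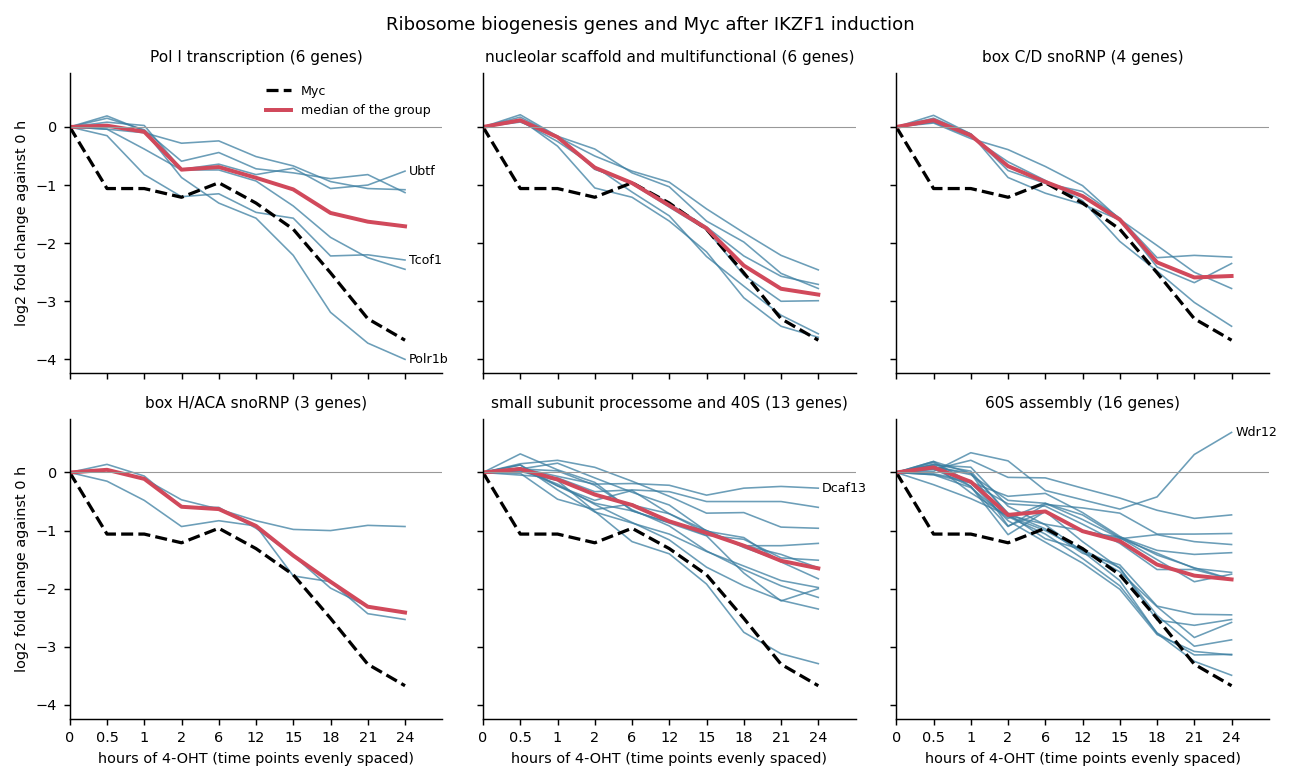
Log2 fold change against 0 h (y axis) at each time of 4-OHT (x axis, time points evenly spaced) for each of the 48 members (thin lines) by role, with the median of the group (red) and Myc (dashed black). Myc is at -1.06 at 30 min, where the member medians are near 0, and the medians of all 6 groups pass -1 between 6 and 15 h.

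The steps between neighbouring time points place these changes. From 0 h to 30 min 0 members fell while Myc fell by 1.06 on the log2 scale. From 30 min to 1 h 26 members fell, against 15.7% of all genes, and from 1 to 2 h 40 members fell, against 13.3%, with a median step of -0.39. Wdr12 and Noc3l rose from 30 min to 1 h (16.3% of all genes did). In both steps the change of Myc did not pass the test. From 2 to 6 h 21 members fell (14.8% of all genes), and Nop14, Pes1, Ppan and Ftsj3 rose by 0.16 to 0.37 on the log2 scale (19.6% of all genes rose).

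In the later steps members and Myc fell together. From 6 to 12 h 28 members fell (13.5% of all genes), from 12 to 15 h 30 (10%), from 15 to 18 h 36 (16.1%) and from 18 to 21 h 22 (5.31%). The median steps were -0.27, -0.35, -0.37 and -0.27. Wdr12 alone rose, in the steps from 15 to 18, 18 to 21 and 21 to 24 h, in which 13, 7.1 and 4.06% of all genes rose. From 21 to 24 h 6 members fell (4.57%), and this count was 1 without replicate 1 of 21 h or without replicate 1 of 24 h and 3 without replicate 2 of 24 h. Those 6 were Polr1a, Ddx21, Nop56, Nop58, Utp20 and Wdr75. The 12 h and 18 h libraries differed most between replicates, and leaving out any 1 library of the time points compared gave 20 to 30 members for 6 to 12 h, in place of 28, and 26 to 35 for 15 to 18 h, in place of 36.

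**Figure D2:**
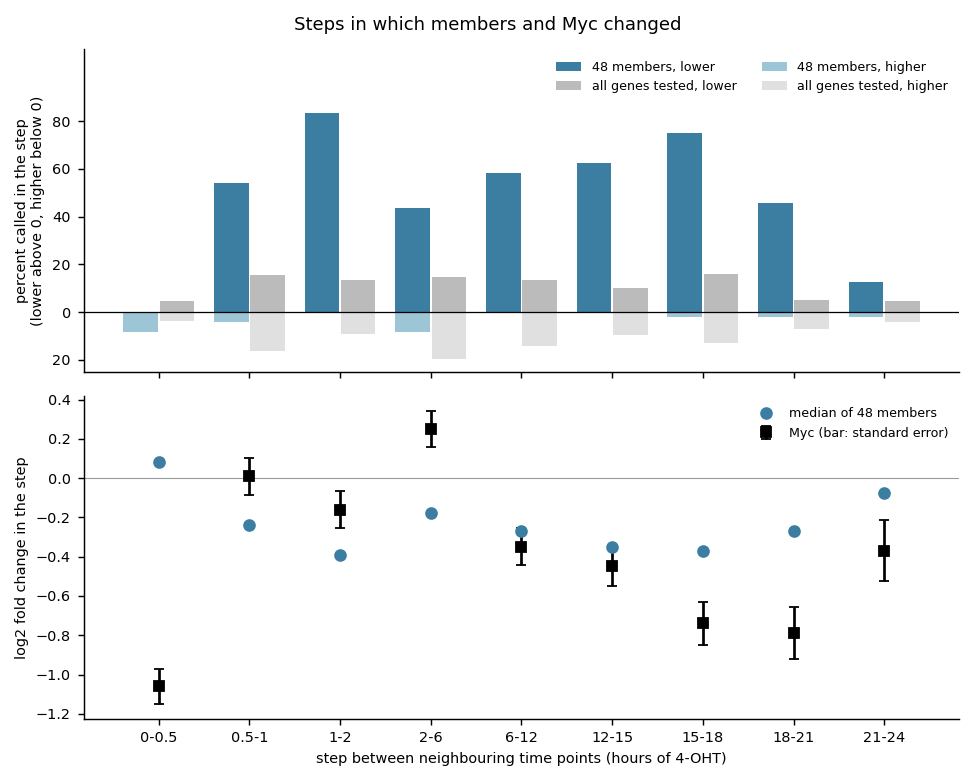
Top, percent of the 48 members (blue) and of all genes tested (grey) called lower (above 0) or higher (below 0) in each step between neighbouring time points; bottom, log2 fold change of Myc in the step with its standard error (black) and median of the members (blue). In the first step Myc is at -1.06 and 0 members fall, and from 1 to 2 h 40 of 48 members fall while Myc is at -0.16.

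The difference was also tested directly, with limma on the log2 CPM of each gene minus the log2 CPM of Myc in the same library, which gives every gene the noise of Myc. At 30 min all 48 members were higher relative to Myc than at 0 h, by a median of 1.14 log2 units, as were 82% of all genes. At 2 h 36 of the 48 were, by a median of 0.60, against 81.9% of all genes with a median of 1.24, and 23 of 48 without replicate 2 of 2 h. At 6 h the members came closest to Myc, with 10 of 48 higher relative to it (70.9% of all genes) and a median difference of 0.28. The distance then widened again to a median of 1.47 at 24 h, with 42 of 48 higher relative to Myc (97.2% of all genes), as Myc fell further.

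Although all 48 members were higher relative to Myc at 30 min, 2 had fallen further than Myc by 15 h. Polr1b was lower relative to Myc at 15, 18 and 21 h, by -0.45, -0.66 and -0.42 log2 units, and Gnl3 at 15 h, by -0.47 (background 1.87% at 15 h, 1.01% at 18 h and 0.59% at 21 h). At 24 h the change of Polr1b, Nolc1, Gnl3, Nop56, Rrp12 and Rrp1b relative to Myc, between -0.33 and 0.38 log2 units, did not pass the test. That does not show that their falls equalled that of Myc.

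**Figure D3:**
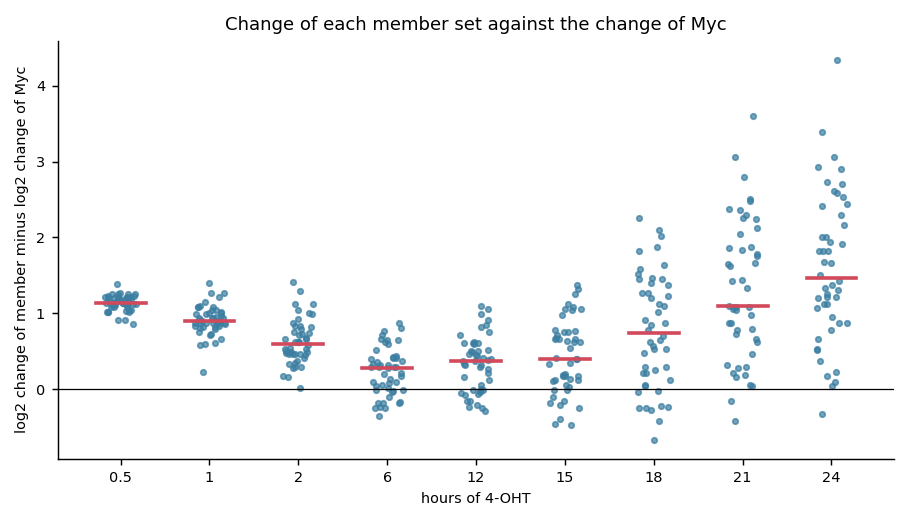
Log2 change of each of the 48 members since 0 h minus the log2 change of Myc (y axis) at each time of 4-OHT (x axis), with the median in red. All points lie above 0 at 30 min (0.86 to 1.39), the median is lowest at 6 h (0.28), and the points spread from -0.33 to 4.34 at 24 h.

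The half-maximal time, the first crossing of the midpoint between 0 h and a gene's extreme, ordered members and Myc in opposite ways on the log2 and linear scales. On the log2 scale the median over 47 members was 12.6 h (quartiles 10.0 and 13.6 h), against 15.3 h for Myc. In the mean of the replicates all 47 were shorter than Myc. In replicate 1 alone Myc was at 14.4 h, and Bysl (15.7 h) and Wdr75 (14.7 h) were longer. On linear CPM the median was 3.21 h (quartiles 1.87 and 7.48 h, range 0.944 to 13.3 h), against 26.5 min for Myc, and all 47 were longer. Myc crosses its linear midpoint in its first fall and its log2 midpoint in its second, so no single time describes it. Wdr12, whose extreme lay above 0 h, was not timed among the falling members. For comparison, the 7308 genes that fell had a median of 6.16 h on the log2 scale. The time from which a gene stayed lower does not depend on a midpoint: it was 30 min for Myc, 1 h for 18 members, 2 h for 25, 6 h for Wdr75 and Bysl, 12 h for Utp15 and Noc3l, and never for Wdr12.

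The 6 genes of Pol I transcription were all lower at 2 h and at 24 h, with medians of -0.74 and -1.71. Of the 6, 5 were down at 24 h. Among all genes, 23.8% were lower at 2 h, and 36.1% were lower and 20.1% down at 24 h. Polr1a (ENSMUSG00000049553, chr6:71909053-71984935, + strand) encodes the largest Pol I subunit. Polr1a was at 178 and 178 CPM in untreated cells, 173 and 174 after 30 min, 136 and 137 after 1 h, 107 and 106 after 2 h, 106 and 107 after 6 h, 91.9 and 95 after 12 h, 67.8 and 71.3 after 15 h, 47.7 and 47.7 after 18 h, 38.3 and 36.7 after 21 h and 33.1 and 32.2 after 24 h. The 30 min libraries were close to those of 0 h and all later ones were lower. At 1 h the log2 fold change was -0.38 (SE 0.036, adjusted p = 1.37e-08). At 24 h it was -2.45 (SE 0.0407, adjusted p = 2.82e-22).

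Polr1b (ENSMUSG00000027395, chr2:129100995-129126594, + strand), which encodes the second-largest subunit, had the largest fall of the 48 at 24 h. Polr1b was at 83.1 and 80.4 CPM in untreated cells, 93.2 and 93.8 after 30 min, 80.2 and 75.8 after 1 h, 44.1 and 45 after 2 h, 31.6 and 34.2 after 6 h, 28.9 and 26.3 after 12 h, 17.9 and 17.4 after 15 h, 9.09 and 8.86 after 18 h, 6 and 6.35 after 21 h and 5.13 and 5.1 after 24 h. Both 30 min libraries lay above both 0 h libraries, and both libraries of each later time point lay below them, by little at 1 h. The log2 fold change was 0.19 (SE 0.0478, adjusted p = 0.0075) at 30 min, -0.87 (SE 0.0498, adjusted p = 2.22e-12) at 2 h and -4.00 (SE 0.0671, adjusted p = 3.31e-22) at 24 h. Polr1c, a subunit shared with Pol III, was at -0.59 at 2 h and -1.13 at 24 h.

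Ubtf (ENSMUSG00000020923, chr11:102304560-102319742, - strand) encodes the HMG-box protein that keeps ribosomal DNA in an active form. Ubtf was at 64.6 and 67.4 CPM in untreated cells, 71.5 and 68.3 after 30 min, 66.8 and 67.5 after 1 h, 38.6 and 40.9 after 2 h, 42 and 42.4 after 6 h, 36.3 and 38.4 after 12 h, 40.5 and 40 after 15 h, 34.3 and 28.8 after 18 h, 31.2 and 34.5 after 21 h and 38.4 and 39.4 after 24 h. Its steepest fall was in the step from 1 to 2 h, by 0.76 on the log2 scale, it fell again by 0.35 from 15 to 18 h (adjusted p = 2.28e-04), and the levels of the later libraries stayed between 28.8 and 42.4 CPM. It was at -0.73 (SE 0.0618, adjusted p = 1.5e-09) at 2 h, -1.06 (SE 0.063, adjusted p = 1.21e-12) at 18 h, its lowest, and -0.76 (SE 0.0627, adjusted p = 2.98e-10) at 24 h, where its fall was the smallest of this group.

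Rrn3 (ENSMUSG00000022682, chr16:13780708-13814839, + strand), which encodes the factor that joins Pol I to the promoter, had the smallest 2 h change of the 6. Rrn3 was at 72.4 and 72.4 CPM in untreated cells, 70.9 and 70.2 after 30 min, 67.2 and 67.7 after 1 h, 61.1 and 58.2 after 2 h, 60.4 and 62.1 after 6 h, 51 and 50.9 after 12 h, 45.7 and 45.4 after 15 h, 39.2 and 36.4 after 18 h, 35.3 and 34.1 after 21 h and 33.7 and 34.9 after 24 h. The libraries at 2 and 6 h were below those of 0 h by a small margin and the level fell in each step from 6 to 18 h. Its log2 fold change was -0.28 (SE 0.0433, adjusted p = 1.03e-05) at 2 h and -1.08 (SE 0.0458, adjusted p = 2.8e-15) at 24 h.

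Tcof1 (ENSMUSG00000024613, chr18:60813755-60848971, - strand) encodes treacle, a nucleolar partner of UBTF and Pol I. Tcof1 was at 99.8 and 98.3 CPM in untreated cells, 90.9 and 87.9 after 30 min, 57.5 and 54.4 after 1 h, 43.7 and 42.7 after 2 h, 44.9 and 44.7 after 6 h, 33.8 and 37.5 after 12 h, 33.7 and 33.1 after 15 h, 23.2 and 19.2 after 18 h, 20.9 and 22.1 after 21 h and 21 and 19.6 after 24 h. It had the largest fall of the 48 at 1 and 2 h, and both libraries were below 0 h already at 30 min, although that difference did not pass the test. Relative to 0 h it was at -0.15 (SE 0.0589, adjusted p = 0.104) at 30 min, -0.82 (SE 0.0601, adjusted p = 2.31e-10) at 1 h and -2.29 (SE 0.0676, adjusted p = 4.34e-18) at 24 h.

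**Figure D4:**
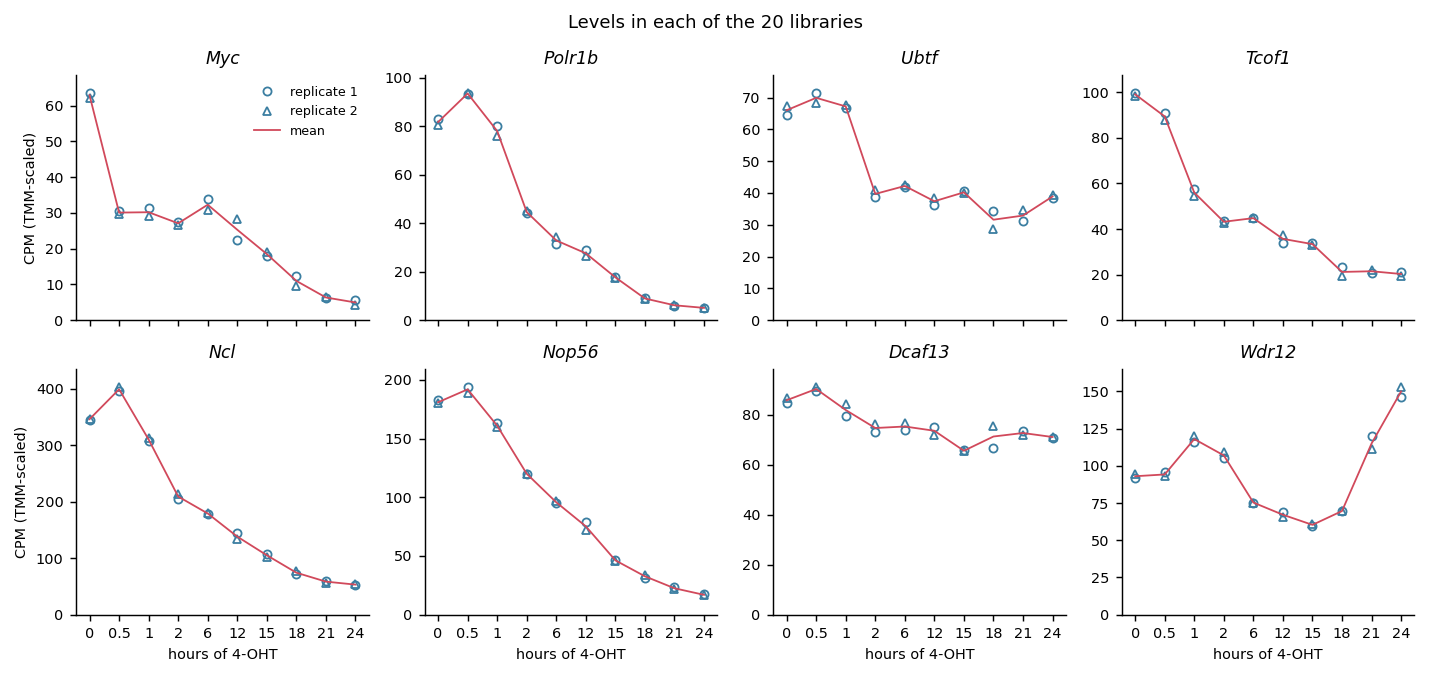
Level in TMM-scaled CPM (y axis, from 0) of Myc and 7 members in each library (replicate 1 circles, replicate 2 triangles, mean as a red line) against hours of 4-OHT (x axis, evenly spaced). Myc drops at 30 min, Polr1b, Ncl and Nop56 are level with or slightly above 0 h at 30 min and then fall, Ubtf drops between 1 and 2 h, and Wdr12 ends at 146 and 153 CPM, above its 0 h level.

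All 6 nucleolar scaffold and multifunctional proteins were lower at 2 h and down at 24 h, against 23.8 and 20.1% of all genes. Their median of -2.88 at 24 h was the lowest of the 6 groups. Ncl (ENSMUSG00000026234, chr1:86344719-86359400, - strand) encodes nucleolin, which binds pre-rRNA. Ncl was at 344 and 347 CPM in untreated cells, 396 and 403 after 30 min, 308 and 313 after 1 h, 205 and 213 after 2 h, 178 and 180 after 6 h, 144 and 133 after 12 h, 107 and 102 after 15 h, 71.8 and 76.3 after 18 h, 60.2 and 56.4 after 21 h and 51.7 and 54.3 after 24 h. Its libraries were above 0 h at 30 min and below 0 h from 1 h on. On the log2 scale it went from 0.21 (SE 0.0421, adjusted p = 0.00157) at 30 min to -0.73 (SE 0.0427, adjusted p = 3.84e-12) at 2 h and -2.71 (SE 0.0473, adjusted p = 6.34e-22) at 24 h. Small RNA genes lie inside Ncl on the same strand, among them Snord82 and Snora75.

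Npm1 (ENSMUSG00000057113, chr11:33152287-33163206, - strand) encodes nucleophosmin, a histone and ribosome chaperone with processed pseudogenes elsewhere in the genome, so reads shared with those make its level uncertain. Npm1 was at 338 and 349 CPM in untreated cells, 357 and 371 after 30 min, 302 and 313 after 1 h, 263 and 265 after 2 h, 195 and 201 after 6 h, 189 and 148 after 12 h, 112 and 112 after 15 h, 76.6 and 98.2 after 18 h, 60.5 and 59.4 after 21 h and 49.5 and 50.4 after 24 h. The replicates of 12 h and 18 h differed more than those of other times, but all libraries from 1 h on were below 0 h. The fall was smaller than that of Ncl at 2 h, -0.38 (SE 0.0816, adjusted p = 0.000409), and reached -2.78 (SE 0.0916, adjusted p = 2.96e-17) at 24 h.

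Nolc1 (ENSMUSG00000015176, chr19:46075863-46085530, + strand), which encodes a phosphoprotein that escorts snoRNPs, had the second-largest fall at 24 h. Nolc1 was at 55.6 and 55.9 CPM in untreated cells, 62.3 and 59.5 after 30 min, 43.5 and 45.5 after 1 h, 26.2 and 27.8 after 2 h, 23.9 and 24.1 after 6 h, 18.1 and 18.3 after 12 h, 12.7 and 12.3 after 15 h, 6.93 and 7.59 after 18 h, 4.51 and 5.7 after 21 h and 4.47 and 4.59 after 24 h. The libraries fell below 0 h from 1 h on. It was at -1.05 (SE 0.0582, adjusted p = 1.5e-12) at 2 h and -3.62 (SE 0.0762, adjusted p = 1.27e-20) at 24 h.

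Gnl3 (ENSMUSG00000042354, chr14:31012433-31019152, - strand) encodes nucleostemin, a nucleolar GTPase of proliferating cells. Gnl3 was at 161 and 165 CPM in untreated cells, 174 and 178 after 30 min, 138 and 138 after 1 h, 102 and 102 after 2 h, 73.4 and 76.8 after 6 h, 61.1 and 52.3 after 12 h, 35.6 and 34 after 15 h, 22.7 and 26.4 after 18 h, 17.2 and 17.3 after 21 h and 13.5 and 14.1 after 24 h. From 1 h on every library was below both 0 h libraries. It stood at -0.68 (SE 0.0565, adjusted p = 1.18e-09) at 2 h and -3.56 (SE 0.0697, adjusted p = 3.89e-21) at 24 h. The other scaffold members, the helicase gene Ddx21 and Mybbp1a, were at -2.46 and -2.99 at 24 h.

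The 4 proteins of box C/D snoRNPs, which guide ribose methylation, were all lower at 2 h and down at 24 h (median -2.56). The shares of all genes were 23.8 and 20.1%. Fbl (ENSMUSG00000046865, chr7:28169710-28179269, + strand) encodes fibrillarin, the methyltransferase. Fbl was at 33.9 and 35.1 CPM in untreated cells, 38.4 and 38.2 after 30 min, 31.9 and 31.7 after 1 h, 20.2 and 20.9 after 2 h, 17.6 and 17.5 after 6 h, 16 and 15.8 after 12 h, 11.9 and 11.4 after 15 h, 8.05 and 6.38 after 18 h, 6.99 and 7.84 after 21 h and 7.48 and 7.14 after 24 h. The 1 h libraries were just below 0 h and all later ones clearly so. Fbl was at -0.75 (SE 0.0658, adjusted p = 2.98e-09) at 2 h and -2.24 (SE 0.0772, adjusted p = 6.7e-17) at 24 h, with no further fall after 18 h.

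Nop56 (ENSMUSG00000027405, chr2:130274430-130279313, + strand) encodes a core scaffold of the same particle and hosts several snoRNAs in its introns. It had the highest 0 h level per length of the 48, 37.1 CPM per kb of gene body, against 12.6 for Myc and 0.607 for Pes1, the lowest. Pes1 overlaps the antisense gene 4930556J24Rik over 12.8 kb of its 16.03 kb, and the effect of this overlap on its level was not tested. Nop56 was at 183 and 180 CPM in untreated cells, 194 and 189 after 30 min, 163 and 160 after 1 h, 120 and 120 after 2 h, 95 and 96.4 after 6 h, 78.7 and 71.8 after 12 h, 46.6 and 45.7 after 15 h, 31.5 and 33.6 after 18 h, 23.3 and 21.4 after 21 h and 17.1 and 16.6 after 24 h. The libraries did not overlap those of 0 h from 1 h on. Its log2 fold change was -0.60 (SE 0.0434, adjusted p = 1.33e-10) at 2 h and -3.43 (SE 0.0528, adjusted p = 8.9e-23) at 24 h, and it still fell by 0.41 from 21 to 24 h. Nop58 and Rrp9, the other proteins of this group, were at -2.78 and -2.35 at 24 h.

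Box H/ACA snoRNPs guide pseudouridylation, and the 3 genes measured for them differed from each other at 24 h. Dkc1 (ENSMUSG00000031403, chrX:75095854-75109777, + strand) encodes dyskerin, the pseudouridine synthase. Dkc1 was at 61.7 and 59.5 CPM in untreated cells, 61.1 and 64.1 after 30 min, 55.2 and 56.8 after 1 h, 43.1 and 44.7 after 2 h, 39.8 and 38.6 after 6 h, 34.8 and 33.5 after 12 h, 31 and 30.4 after 15 h, 29.7 and 31 after 18 h, 33.4 and 31.1 after 21 h and 31.4 and 32.2 after 24 h. It fell to 31.0 and 30.4 CPM by 15 h, and no later step passed the test. The log2 fold change was -0.47 (SE 0.0477, adjusted p = 3.08e-08) at 2 h and -0.93 (SE 0.0497, adjusted p = 1.6e-13) at 24 h, against -2.53 for Nhp2 and -2.41 for Gar1. Dkc1 overlaps the end of the antisense gene Mpp1, whose level rose from 42.5 to 152 CPM, over 0.045 kb, and the part of those reads in the Dkc1 level was not tested.

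The small subunit processome assembles on the nascent pre-rRNA. Of its 13 members here, 10 were lower at 2 h (median -0.38, against 23.8% of all genes). At 24 h all 13 were lower (median -1.65) and 10 down, against 36.1 and 20.1% of all genes. Utp20 (ENSMUSG00000004356, chr10:88746607-88826804, - strand) encodes a large scaffold of the 40S precursor. Utp20 was at 192 and 191 CPM in untreated cells, 199 and 200 after 30 min, 195 and 195 after 1 h, 163 and 165 after 2 h, 122 and 124 after 6 h, 108 and 94.7 after 12 h, 75.1 and 75.4 after 15 h, 58.3 and 61.7 after 18 h, 49.5 and 49.4 after 21 h and 43.7 and 42.3 after 24 h. It was slightly above 0 h until 1 h and below it from 2 h on. Its log2 change was -0.22 (SE 0.0442, adjusted p = 0.000222) at 2 h, -0.64 (SE 0.0446, adjusted p = 4.96e-11) at 6 h and -2.15 (SE 0.0488, adjusted p = 4.53e-20) at 24 h.

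Heatr1 (ENSMUSG00000050244, chr13:12395027-12440289, + strand) encodes another large processome protein, needed for Pol I transcription too. Heatr1 was at 151 and 154 CPM in untreated cells, 157 and 154 after 30 min, 138 and 142 after 1 h, 119 and 115 after 2 h, 102 and 105 after 6 h, 98 and 87.5 after 12 h, 73.7 and 73.8 after 15 h, 61.8 and 66.2 after 18 h, 59.6 and 54.9 after 21 h and 45.5 and 52.1 after 24 h. All libraries from 1 h on were below those of 0 h. It was at -0.38 (SE 0.055, adjusted p = 4.54e-06) at 2 h and -1.64 (SE 0.0589, adjusted p = 1.38e-16) at 24 h. The antisense neighbour Lgals8, which overlaps it over 0.875 kb, rose by 0.92 on the log2 scale.

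Utp15 (ENSMUSG00000041747, chr13:98246845-98263041, - strand), which encodes a WD-repeat protein of the processome, was the latest to fall in this group. Utp15 was at 58.2 and 55.4 CPM in untreated cells, 61.7 and 63.9 after 30 min, 65.2 and 66.6 after 1 h, 58 and 62.7 after 2 h, 50.1 and 52.6 after 6 h, 47.9 and 37.7 after 12 h, 34.6 and 35.4 after 15 h, 32.7 and 37.6 after 18 h, 31.9 and 27.6 after 21 h and 28.1 and 30.3 after 24 h. The 1 h libraries were the highest and those of 6 h on lay below 0 h. It was at 0.09 (SE 0.081, adjusted p = 0.364) at 2 h, first passed the test at 12 h with -0.41 (SE 0.0834, adjusted p = 0.000169), and reached -0.96 (SE 0.0868, adjusted p = 1.5e-09).

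Dcaf13 (ENSMUSG00000022300, chr15:39112865-39146856, + strand) encodes a processome protein that also serves as a substrate receptor of a ubiquitin ligase. Dcaf13 was at 84.8 and 86.5 CPM in untreated cells, 89.4 and 91 after 30 min, 79.6 and 84.1 after 1 h, 73.1 and 76.1 after 2 h, 73.8 and 76.6 after 6 h, 75.2 and 71.9 after 12 h, 65.8 and 65.3 after 15 h, 66.8 and 75.6 after 18 h, 73.4 and 71.7 after 21 h and 70.8 and 71.1 after 24 h. Its libraries from 1 h on lay below those of 0 h by little, and it had the smallest fall of the 47 members that were lower at 24 h. The log2 fold change was -0.20 (SE 0.0494, adjusted p = 0.00164) at 2 h and -0.27 (SE 0.05, adjusted p = 4.48e-05) at 24 h, and the 2 h call was lost without replicate 2 of 0 h (adjusted p = 0.0177) or replicate 1 of 2 h (0.0308).

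Ddx10 (ENSMUSG00000053289, chr9:53098635-53248053, - strand), a helicase gene and the longest of the 48 at 149 kb, also changed little. Ddx10 was at 254 and 255 CPM in untreated cells, 238 and 255 after 30 min, 233 and 243 after 1 h, 200 and 204 after 2 h, 206 and 208 after 6 h, 207 and 196 after 12 h, 175 and 185 after 15 h, 167 and 193 after 18 h, 181 and 178 after 21 h and 163 and 172 after 24 h. Every library from 1 h on was below 0 h. It was at -0.33 (SE 0.0523, adjusted p = 1.24e-05) at 2 h and -0.60 (SE 0.0529, adjusted p = 9.32e-10) at 24 h. Rrp12, at -3.29, had the largest 24 h fall of the group, and Utp4, Wdr43, Wdr75, Nop14, Noc4l, Imp4 and Bysl lay between -2.35 and -1.22.

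Of the 16 genes of 60S assembly, 14 were lower at 2 h (median -0.73, against 23.8% of all genes). At 24 h 15 were lower (median -1.84), 14 down and 1 higher, against 36.1, 20.1 and 35.4% of all genes. The proteins of Bop1, Pes1 and Wdr12 form the PeBoW complex of 60S maturation, and their genes moved apart. Bop1 (ENSMUSG00000022557, chr15:76452989-76477277, - strand) fell steeply. Bop1 was at 68.3 and 66.1 CPM in untreated cells, 76.7 and 71.4 after 30 min, 68 and 68.5 after 1 h, 41.3 and 40.4 after 2 h, 30.6 and 30.4 after 6 h, 25.6 and 27.8 after 12 h, 22.5 and 20.5 after 15 h, 12.8 and 10.2 after 18 h, 10.4 and 11.2 after 21 h and 12.8 and 10.5 after 24 h. Libraries from 2 h on did not overlap those of 0 h. It was at a log2 change of -0.72 (SE 0.0713, adjusted p = 1.85e-08) at 2 h and -2.53 (SE 0.0837, adjusted p = 3.22e-17) at 24 h. Pes1 was at -0.93 (SE 0.0895, adjusted p = 1.25e-08) at 2 h, -0.55 (SE 0.0845, adjusted p = 6.27e-06) at 6 h and -1.05 (SE 0.0936, adjusted p = 1.17e-09) at 24 h. The effect of its 12.8 kb overlap with the antisense gene 4930556J24Rik on these values was not tested.

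Wdr12 (ENSMUSG00000026019, chr1:60069785-60098645, - strand) was the exception among the 48. Wdr12 was at 91.5 and 94.6 CPM in untreated cells, 95.6 and 92.9 after 30 min, 116 and 120 after 1 h, 105 and 109 after 2 h, 75.3 and 75.2 after 6 h, 68.8 and 65.5 after 12 h, 59.6 and 61 after 15 h, 69.3 and 69.9 after 18 h, 120 and 111 after 21 h and 146 and 153 after 24 h. It was above 0 h at 1 and 2 h, below it from 6 to 18 h, and above it again at 21 and 24 h, with no overlap between those libraries and the 0 h libraries. The log2 fold change was 0.34 (SE 0.0432, adjusted p = 9.64e-07) at 1 h, -0.63 (SE 0.0448, adjusted p = 4.07e-11) at 15 h and 0.69 (SE 0.0433, adjusted p = 3.11e-12) at 24 h, and its largest step up, from 18 to 21 h, was 0.72 (SE 0.0446, adjusted p = 1.89e-10). Scaled by library totals it was at 0.43 at 24 h. Wdr12 overlaps the antisense gene Carf over 0.399 kb, and Carf rose from 39.3 CPM at 0 h to 121 at 24 h (log2 fold change 1.62). The library kit keeps strand, but the strand setting of the counting is not given in the sources used here, and the part of Carf reads in the Wdr12 level was not tested.

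Rrs1 (ENSMUSG00000061024, chr1:9545408-9547455, + strand), the shortest of the 48 at 2.05 kb, encodes a factor that brings the 5S particle into the 60S precursor. Rrs1 was at 5.08 and 5.38 CPM in untreated cells, 5.6 and 5.32 after 30 min, 4.32 and 4.57 after 1 h, 2.61 and 2.38 after 2 h, 3.08 and 3.49 after 6 h, 2.82 and 2.37 after 12 h, 2.73 and 2.13 after 15 h, 2.05 and 2.07 after 18 h, 1.59 and 2.28 after 21 h and 2.18 and 1.84 after 24 h. Its levels were low and the libraries from 1 h on were all below those of 0 h. It was at -1.07 (SE 0.131, adjusted p = 4.16e-07) at 2 h, -0.67 (SE 0.121, adjusted p = 5.62e-05) at 6 h and -1.38 (SE 0.142, adjusted p = 1.15e-08) at 24 h.

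Noc3l (ENSMUSG00000024999, chr19:38788128-38819237, - strand) encodes a nucleolar complex protein of pre-60S transport. Noc3l was at 50.4 and 48.9 CPM in untreated cells, 51.1 and 51.7 after 30 min, 57.3 and 57.7 after 1 h, 45.9 and 47.7 after 2 h, 47 and 46.1 after 6 h, 40.6 and 41.8 after 12 h, 36.4 and 36.7 after 15 h, 31.4 and 32.1 after 18 h, 27.5 and 29.8 after 21 h and 30 and 29.8 after 24 h. The 1 h libraries were the highest, and those from 2 h on were below 0 h. Relative to 0 h its log2 value was 0.21 (SE 0.0439, adjusted p = 0.000407) at 1 h, -0.08 (SE 0.0447, adjusted p = 0.115) at 2 h and -0.73 (SE 0.0469, adjusted p = 4.19e-12) at 24 h. The remaining 60S genes, Wdr74, Ddx18, Nle1, Noc2l, Nop2, Nop16, Rrp1b, Ppan, Ftsj3, Nip7 and Mrto4, were between -3.49 (Rrp1b) and -1.24 (Nip7) at 24 h.

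Several members overlap other annotated genes: 23 of 48 did, 20 an antisense gene and 7 a gene on the same strand, with a snoRNA inside all 7. Of the 25 with no overlap, 22 were lower at 2 h, 25 at 24 h and 22 down at 24 h, against 23.8, 36.1 and 20.1% of all genes. Bysl, an assembly factor gene of the 40S subunit that was higher at 30 min, overlaps Ccnd3 over 0.361 kb, and Ccnd3 rose from 124 to 540 CPM by 24 h.

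Members ranged from 2.05 to 149 kb in gene length. At 2 h, the 18 members under 10 kb had a median log2 fold change of -0.72, the 19 of 10 to 30 kb -0.58 and the 11 over 30 kb -0.38, against -0.03, 0.00 and 0.08 for all genes tested of the same lengths. Across the 48 genes, which are not independent replicates and share the 4 libraries, log10 length and the 2 h log2 fold change had a Pearson r of 0.404 and a Spearman rho of 0.425. At 24 h the same values were 0.143 and 0.158, and the medians of the length classes were -2.29, -2.00 and -2.15.

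**Figure D5:**
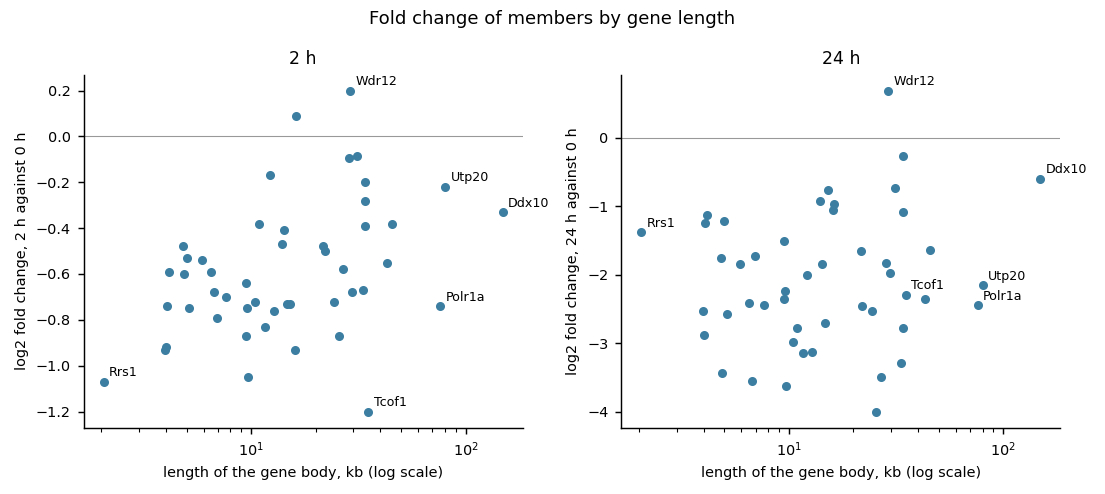
Log2 fold change of each of the 48 members against 0 h (y axis) at 2 h (left) and 24 h (right) against the length of the gene body in kb (x axis, log scale). At 2 h the medians go from -0.72 under 10 kb to -0.38 over 30 kb, and at 24 h they lie between -2.29 and -2.00.

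The promoters of 41 members were in the RefSeq table (GRCm38.p6), as 250 bases before and 50 after each transcription start. Not in it were Bop1, Dcaf13, Fbl, Npm1, Rrp12, Rrs1 and Tcof1. The E-box CACGTG, which reads the same on both strands, was found in 9 of 41 (22.0%, exact binomial 95% interval 10.6 to 37.6%), against 8.09% of the 27025 genes in the table. Before the start 3 of 41 held it (7.32%), against 6.86% of all genes. In the 50 bases after the start 6 of 41 did (14.6%), against 1.28%, a window that was examined after the others had been seen. The windows below show examples before the start (Rrn3, Nop2) and after it (Pes1, Wdr43, Utp20), 5′ to 3′ on the strand of the gene, with the E-box in capitals; its first base is at -48 and -60 in the former and at 3, 18 and 38 in the latter, where 1 is the start and there is no 0. They are from chr16:13780641-13780666 (+), chr6:125131813-125131838 (+), chr11:3963967-3963992 (+), chr17:71616222-71616247 (+) and chr10:88826765-88826787 (-).
Rrn3: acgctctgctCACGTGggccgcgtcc
Nop2: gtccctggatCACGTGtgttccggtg
Pes1: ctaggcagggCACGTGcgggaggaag
Wdr43: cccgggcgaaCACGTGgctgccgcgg
Utp20: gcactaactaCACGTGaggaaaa

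The other 4 members with an E-box were Imp4, Mybbp1a, Nle1 and Utp4. The 9 members with an E-box and the 32 without had like medians at 2 h (-0.68 and -0.58) and 24 h (-2.15 and -1.92), and their ranges overlapped. TGGGAA, a form of the IKZF1 site, searched on both strands, was in 12 of 41 member genes (29.3%) against 28.3% of all genes. A match is only the presence of these letters in the window.

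The other 86 ribosome biogenesis genes of a wider list, of which 83 were tested, moved the same way with a smaller median. At 30 min 2 were lower and 10 higher (4.74 and 3.7% of all genes), at 2 h 59 were lower and 2 higher (median -0.32, against 23.8 and 23.9% of all genes), and at 24 h 72 were lower and 2 higher (median -1.23, against 36.1 and 35.4%), with 47 down (20.1%). The lowest at 24 h were Mdn1, an AAA ATPase gene of 60S assembly (log2 fold change -2.78), Rrp15 (-2.76) and Lyar (-2.60), and the highest that passed the test were Utp3 (0.55), Ddx47 (0.33) and Nol8 (-0.20). Of 15 further Pol I subunits and factors, 8 were lower and 2 higher at 24 h (36.1 and 35.4% of all genes), with a median of -0.40. Several of these 15 are shared with other polymerases. Polr2f (-2.33), the Pol I subunit gene Polr1g (-1.94) and the TBP-associated factor gene Taf1d (-1.37) were lowest, while Ttf1, which encodes the Pol I termination factor, rose by 1.17 and Polr2k by 0.60, and Polr2e was at -0.40.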

How the data were processed

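Chromatin-associated RNA of B3 cells was sequenced at 10 time points with 2 replicates. The authors aligned reads to mm10 (GRCm38) with STAR in nf-core/rnaseq and deposited raw counts per gene from featureCounts, intronic reads included, with no normalization. Annotation release and strand setting are not given in the sources used here. Titles gave the time point and replicate of each library, and column names tied the columns to them. No label says that replicates are separate cultures, so p-values measure the spread between these libraries, which may be technical. Reads carry no molecular identifiers, and the depth describes counting error only.

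In R 4.3.3, edgeR 4.0.16 fitted one quasi-likelihood model to all 20 libraries, with TMM factors and a term per time point, for every gene that reached 10 counts in 2 or more of them. Calls took an adjusted p-value under 0.01, with or without a fold above 2. The study's likelihood ratio test covers all time points at once, so each time point was tested here against 0 h and against the one before. The exact permutation test of 2 against 2 libraries cannot go below 0.333 and was not used. Half-maximal times came from mean log2 CPM (prior count 2) by linear interpolation. Change relative to Myc was tested with limma 3.58.1, added after the data were seen. DESeq2 1.42.0, other scalings, filters and references, a replicate block, thresholds and leaving out each library were alternatives. In data simulated for the 24 h comparison, 98% of genes changed by 1.5-fold and 100% of those changed by 2-fold or more were found. The changed genes were drawn only from those above a minimum mean CPM, which Rrs1 did not reach. Recovery at such low levels was not tested.

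The members and lists were chosen with earlier results of these data known. Values in every library are given for Myc, for Polr1a, Polr1b, Ubtf, Rrn3, Ncl, Npm1, Fbl, Nop56, Dkc1, Bop1, Heatr1 and Utp20, and for the 3 members with the lowest and the highest log2 fold changes at 2 h and at 24 h. From other lists, the 3 lowest and 3 highest at 24 h that passed the test are named. Gene positions are from GENCODE M21 and promoter sequences from RefSeq (GRCm38.p6).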

Additional observations from a re-analysis of the deposited data

How the results depend on the processing

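Directions of the members held under the alternatives tried, except as given here. The share of all genes called is not given for these alternatives. The counts below show only how the member calls depend on the setting. With 30 min as the reference, Myc at 1 h was 0.0092 (adjusted p = 0.954), since its first fall had passed, Utp15 at 2 h was -0.056, and 8 members were down at 2 h and 16 at 6 h. With an adjusted p under 0.05 and a fold above 1.5, 1 member was down after 1 h, 27 after 2 h and 32 after 6 h, 1 was up after 24 h, and 11 fell from 21 to 24 h. With only the 4 libraries compared, 1 member fell by 30 min, 16 from 6 to 12 h and 2 from 18 to 21 h. Without members that overlap another gene, where 25 remain, 22 were lower at 2 h and 25 at 24 h, 5 were down at 6 h and 22 at 24 h, and 10, 21, 8, 14, 16, 19, 10 and 3 fell in the 8 steps from 30 min on. The median half-maximal time of members was 3.21 h on linear CPM and 13.5 h with library totals, and that of Myc 0.441 h on linear CPM. The E-box was in 7.32% of members before the start.

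Leaving out 1 library at a time gave 3 to 4 members down after 2 h, 9 to 11 after 6 h and 41 to 41 after 24 h, 42 to 43 lower after 2 h, steps of 18 to 20, 31 to 34, 17 to 17, 20 to 30, 26 to 28, 26 to 35, 15 to 23 and 1 to 4 members from 30 min on, -1.11 to -1.01 for Myc at 1 h, and 23 to 27 members higher relative to Myc at 2 h. With the libraries of 1 replicate number at a time, which leaves out 10 libraries, the half-maximal time was 12.5 to 13.1 h for the median member and 14.4 to 15.6 h for Myc. Same-numbered libraries did not deviate together on average (mean r 0.0196 over 45 pairs of time points, -0.625 to 0.418), although r was over 0.1 in 16 pairs. The numbers were not taken to pair the libraries, and the mean cannot show that none of them shared a deviation. With a replicate block, 3 members fell from 21 to 24 h in place of 6. Library totals put the median of all genes at -0.27 at 24 h, against -0.01 with TMM, and 44 members down. Members with few counts, such as Rrs1, had the largest standard errors.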

Other observations

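Other gene groups that accompany ribosome production moved unevenly. Of 21 genes of Pol III, which transcribes 5S rRNA and tRNAs, 8 were lower and 1 higher at 2 h (23.8 and 23.9% of all genes), and 15 were lower and 3 higher at 24 h (36.1 and 35.4% of all genes, median -0.54). The subunit genes Polr3e (log2 fold change -2.83) and Polr3d (-2.21) and the TFIIIC gene Gtf3c5 (-2.28) were lowest. Maf1, which encodes a repressor of Pol III, rose by 1.24 and Polr3gl, a paralogue of Polr3g, by 1.12, and Gtf3c3 rose by 0.21. Of 22 further growth genes often called MYC targets, 21 were lower at 24 h and Tfrc, the transferrin receptor gene, rose by 2.35, with a median of -2.30. Srm, which encodes spermidine synthase, was at -5.12, and the nucleotide synthesis genes Umps and Gart at -3.29 and -3.22. The smallest falls were those of Cdk4 (-0.79) and Cad (-1.32).

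Of the 10 tested genes of the MYC network list, 5 were higher and 4, Myc among them, lower at 24 h (35.4 and 36.1% of all genes). The MXD genes, whose proteins compete with MYC for MAX, moved unevenly. At 24 h Mxd4 was higher by 3.32 on the log2 scale (20.7 to 207 CPM), Mxi1 by 2.95 (15.0 to 116 CPM) and Mxd1 by 0.42, whereas Mxd3 fell by 1.31. Among the other genes of the list, Mlxip was higher by 1.18 and Mga by 0.14, and Mlx fell by 0.38 and Mnt by 0.31. Max was at 0.09 (adjusted p = 0.033 in edgeR's quasi-likelihood test). Mycn and Mycl did not pass the count filter.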
